A study of Mus musculus with 6 samples.

Results

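Macrophages and dendritic cells take on different states with the signals they meet, and 5 genes that mark those states were examined here: Retnla, Chil3, Arg1, Acod1 and Nos2. They were chosen by name, from 18193 named genes on the arrays, with their signals in bone marrow-derived dendritic cells (BMDC) and follicular dendritic cells (FDC) already known, so their BMDC and FDC values are a description and carry no test. Each of the 5 genes had 1 probe set annotated to it alone. Total RNA of mouse cells was labelled with biotin and read on 6 arrays: 2 of BMDC, 2 of FDC grown in culture, 1 of activated FL-Y and 1 of FL-Y. FL-Y is a single FDC-like line transformed with SV40, and its activated form was treated with an antibody to the lymphotoxin beta receptor. Mouse strain, age, the cytokines in the BMDC cultures and the dose and time of the antibody are not given in the labels, and they do not say whether the 2 arrays of a cell type came from different cultures, so a p-value here speaks only of array-to-array spread, which may be technical.

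As background, interleukin-4 and interleukin-13 act through the transcription factor STAT6 to produce the state called alternative activation, which Retnla, Chil3 and Arg1 mark in the mouse. Interferon-gamma and bacterial lipopolysaccharide (LPS) act through interferon and NF-kB signalling to produce classical activation, for which Nos2 and Acod1 are standard genes. Arg1 and Nos2 encode enzymes that compete for arginine: arginase 1 turns it into ornithine and urea, and inducible nitric oxide synthase turns it into citrulline and nitric oxide. Acod1 makes the antimicrobial metabolite itaconate from an intermediate of the tricarboxylic acid cycle. Retnla encodes a small secreted resistin-like protein, and Chil3 a secreted chitinase-like protein without enzyme activity.

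The bases before the start site show what the genes could share that the choice of genes did not use. RefSeq (GRCm38.p6) held a promoter window for 3 of the 5 genes, and the 250 bases upstream of each start are shown with motif matches in capitals, Retnla from chr16:48842359-48842608, plus strand, Chil3 from chr3:106167565-106167814, minus strand and Acod1 from chr14:103046762-103047011, plus strand. Chil4, a relative of Chil3, is shown for 221 bases (chr3:106219508-106219728, minus strand) because an array probe set reads both genes. The Chil4 bases begin at -249 and stop short of its start site at 106219479. Motif matches of Chil4 outside them are not given.
Retnla: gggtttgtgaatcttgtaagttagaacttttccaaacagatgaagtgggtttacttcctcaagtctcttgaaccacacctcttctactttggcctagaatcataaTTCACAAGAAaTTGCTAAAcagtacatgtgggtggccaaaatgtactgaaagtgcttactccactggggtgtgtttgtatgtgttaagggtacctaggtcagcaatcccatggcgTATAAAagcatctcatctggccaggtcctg
Chil3: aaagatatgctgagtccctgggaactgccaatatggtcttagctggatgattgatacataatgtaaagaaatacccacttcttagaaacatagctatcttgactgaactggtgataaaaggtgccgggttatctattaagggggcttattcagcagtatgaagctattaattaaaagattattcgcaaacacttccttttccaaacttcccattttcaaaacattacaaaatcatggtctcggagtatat
Chil4: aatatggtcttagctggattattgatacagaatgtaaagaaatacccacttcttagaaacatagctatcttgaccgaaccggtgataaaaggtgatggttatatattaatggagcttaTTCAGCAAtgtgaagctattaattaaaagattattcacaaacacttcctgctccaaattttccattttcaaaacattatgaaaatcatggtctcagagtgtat
Acod1: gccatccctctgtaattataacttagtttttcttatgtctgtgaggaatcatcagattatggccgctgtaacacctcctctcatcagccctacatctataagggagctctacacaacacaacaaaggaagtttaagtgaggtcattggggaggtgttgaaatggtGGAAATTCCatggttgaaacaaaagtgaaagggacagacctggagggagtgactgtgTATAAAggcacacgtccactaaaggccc

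The 5 motifs were searched on both strands, with their letters chosen with these sequences in view: TTC and GAA with 4 bases between them (the spacing STAT6 prefers), GGANNTTCC (an NF-kB form), TTGCNNAA (a C/EBP form), GAAA repeated after 2 bases (interferon response element) and TATAAA, the core of the box that positions many start sites. Retnla carried the STAT6 spacing from -145 to -136, counted from the start site, with a C/EBP form from -134 to -127 next to it. The Chil3 window held no match to these 5 motifs, which says only that their letters are not in it. The Chil4 bases shown held a C/EBP form on the reverse strand from -131 to -124, also counted from the gene's start site. Acod1 carried the NF-kB form from -85 to -77. Retnla and Acod1 each held TATAAA in the last 50 bases on the gene's strand, as did 2.63% of 32851 promoter windows. Over 250 bases, 5.85% of all windows held the STAT6 spacing, 3.59% this NF-kB form, 9.56% the C/EBP form, 2.98% the interferon element and 12.4% TATAAA on either strand. A match is a description of these letters and not a bound site.

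Values are array signals on the linear scale to which the authors had brought every array, and differences are of log2(signal + 14.2), written as log2 differences below. Each array's 20th percentile, between 8.7 and 15.4, serves as its background mark, and 14.2 is the middle of the 6 marks. The mark is a convention rather than a detection limit, and adding 14.2 shrinks the differences of dim genes. Signals of different probe sets need not be comparable, so sums over marker lists and contrasts of brightness between genes are only rough descriptions.

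The alternative activation genes of the group were bright on both BMDC arrays. Retnla had signals of 39043 and 18164 in BMDC, 7.8 and 13.7 in FDC, 2.4 in activated FL-Y and 2.6 in FL-Y. The BMDC arrays stood far above all others, and the other 4 arrays lay under their background mark. The log2 difference of BMDC minus FDC was 10.07 ± 0.51 (SE, n = 2 arrays each), and its size depends on the offset because the FDC signals are at background. Arg1 had signals of 65953 and 36587 in BMDC, 247 and 355 in FDC, 3.8 in activated FL-Y and 14.2 in FL-Y. Its levels fell in 3 steps that did not overlap: BMDC, then FDC, then the FL-Y arrays at or near background. The log2 difference of BMDC minus FDC was 7.31 ± 0.47 (SE).

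Chil3 had signals of 55327 and 34477 in BMDC, 937 and 61.0 in FDC, 3.6 in activated FL-Y and 26.1 in FL-Y. BMDC and FDC did not overlap, while the 2 FDC arrays differed by 15.4-fold from each other, much more than the 1.60-fold between the BMDC arrays. The log2 difference of BMDC minus FDC was 7.35 ± 1.20 (SE), or 9.18 without FDC array 1 and 5.52 without FDC array 2. Myeloid markers went both ways between the FDC arrays: of 5 macrophage and monocyte markers above the 40th percentile of FDC level, 1 was at least 1 lower and 0 at least 1 higher on array 2, with a median of -0.03. That one was the lysozyme gene Lyz2, at 1449 and 557 on FDC arrays 1 and 2, while Csf1r, the receptor for macrophage growth factor, read 168 and 243 and Adgre1 87.7 and 144. Of 6 neutrophil markers at that level 1 was at least 1 lower, Camp at 883 and 200, and 1 at least 1 higher, Ngp at 36.2 and 96.8. The summed signal of 10 macrophage and monocyte markers was 150279 and 111719 on the BMDC arrays, against 2360 and 1366 on FDC arrays 1 and 2. The part of such cells in the FDC signal of Chil3 was not tested. In bulk RNA, fewer cells of a type and less RNA per cell cannot be told apart.

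A probe set annotated to both Chil4 and Chil3 read 63339 and 38621 in BMDC, 1469 and 134 in FDC, 12.4 in activated FL-Y and 4.5 in FL-Y. It followed the pattern of the Chil3 probe set on BMDC and FDC. The probe set for Chil4 alone read 395 and 10.0 in BMDC, 185 and 99.6 in FDC, 6.2 in activated FL-Y and 39.4 in FL-Y, so its BMDC arrays spanned its FDC arrays and its log2 difference was -0.60 ± 1.32 (SE, adjusted p = 0.836 with limma). The promoter windows of the 2 genes were identical at 251 of 272 aligned positions (92.3%), which includes bases after the start site. Their transcripts were not compared, and since 1 probe set is annotated to both genes, how far Chil4 RNA enters the Chil3 values is uncertain.

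Acod1, set beside classical activation by its known induction, was also bright in BMDC. It had signals of 4904 and 12989 in BMDC, 3.5 and 26.8 in FDC, 1.1 in activated FL-Y and 6.7 in FL-Y. The BMDC arrays again stood far above the rest, and only FDC array 2 among the other 4 exceeded its background mark. The log2 difference of BMDC minus FDC was 8.21 ± 0.67 (SE), with a size that depends on the offset.

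Nos2 went against the label under which these genes are grouped, since it was near background in BMDC. It had signals of 35.9 and 10.5 in BMDC, 5.7 and 1635 in FDC, 20.5 in activated FL-Y and 6.9 in FL-Y. FDC array 2 was the one bright array. BMDC array 1 and activated FL-Y lay slightly above their background marks and the other 3 arrays under them, so BMDC and FDC overlapped. The log2 difference of BMDC minus FDC was -2.36 ± 2.01 (SE), and without FDC array 2 it turned to 0.82. Retnla, Chil3, Arg1 and Acod1 thus had both BMDC arrays above all 4 other arrays, as did 20.7% of 12750 genes tested, while Nos2 did not. Since the genes were chosen with these BMDC and FDC values known, that share is context and no test. All 5 genes passed the filter on low values described below, Retnla and Acod1 only through BMDC and Nos2 only through FDC array 2.

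**Figure D1:**
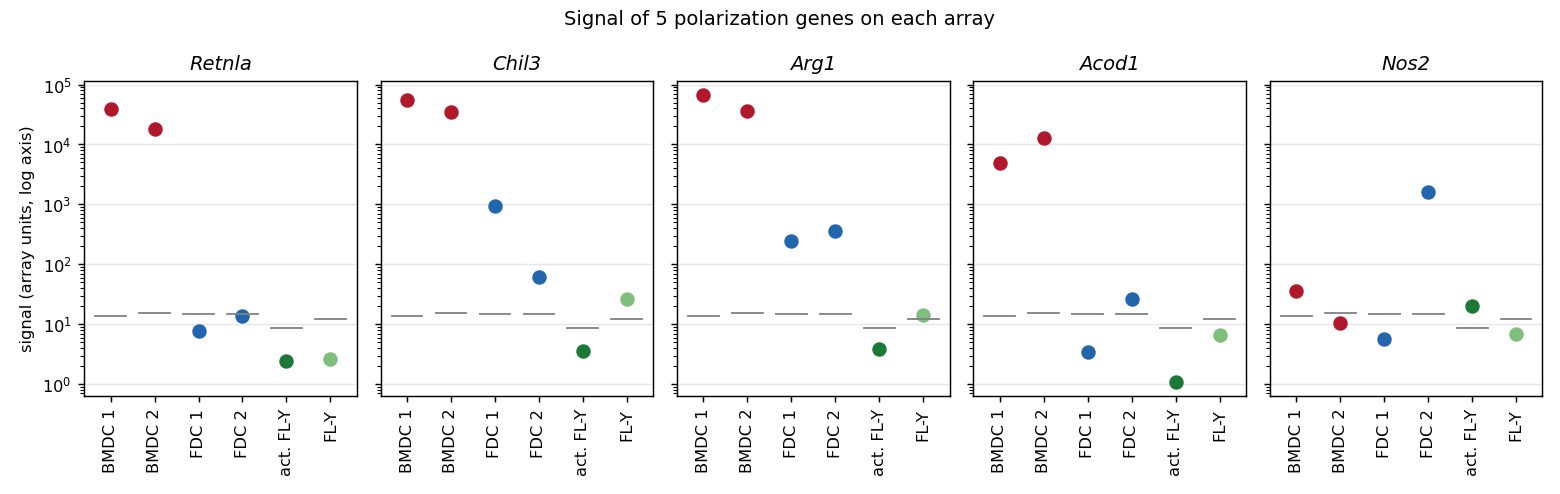
Signal of Retnla, Chil3, Arg1, Acod1 and Nos2 on each of the 6 arrays (points, log axis), with each array's 20th percentile as a grey line. The BMDC points of the first 4 genes lie between 4904 and 65953, and the only bright Nos2 point is FDC array 2 at 1635.

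The 2 BMDC arrays differed in the balance of these genes. Retnla was lower on BMDC array 2 than on BMDC array 1 by a log2 difference of -1.10, Arg1 by -0.85 and Chil3 by -0.68, while Acod1 was higher by 1.40. Among 12479 genes above the 40th percentile of BMDC level, 7.18% were at least 1 higher on array 2 and 7.95% at least 1 lower. These are differences between single arrays, with no test. The wider lists were read the same way. Of 20 classical activation genes above that level, 10 were at least 1 higher on BMDC array 2 and 2 at least 1 lower, with a median of 1.05, against a median of -0.01 over all genes. The chemokine Ccl3 read 589 and 5191 on BMDC arrays 1 and 2, and the costimulatory ligand Cd80 read 139 and 1104. The cytokine Il6 went the other way (688 and 176), as did the interleukin-12 subunit Il12a (258 and 105).

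Of 23 alternative activation genes at that level in BMDC, 5 were at least 1 higher and 4 at least 1 lower on array 2, with a median of 0.46, so that list did not move one way. The chemokine Ccl17 read 6416 and 58600 on BMDC arrays 1 and 2, and Socs2, a feedback inhibitor of cytokine receptors, read 1764 and 10472. The mannose receptor Mrc1 read 8084 and 1798, in the direction of Retnla. Markers of other cells moved between the same 2 arrays. Of 10 neutrophil markers, 4 were at least 1 higher on BMDC array 2 and 1 was lower, with summed signals of 98756 and 167898. Ngp read 3215 and 20660 and the granule protein Ltf 683 and 6496 on BMDC arrays 1 and 2. Of 10 macrophage and monocyte markers 3 were at least 1 lower on array 2 and 1 was higher, among them the phagocytic receptor Mertk at 1574 and 353 and the complement chain C1qa at 3655 and 970. Of 7 markers of eosinophils, basophils and mast cells at that level 3 were lower and 0 higher. The ratio of labelling to hybridisation controls was 0.0569 and 0.228 on BMDC arrays 1 and 2, and 0.0581 and 0.150 on FDC arrays 1 and 2. The part of these cells and of labelling in the differences between arrays was not tested.

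**Figure D2:**
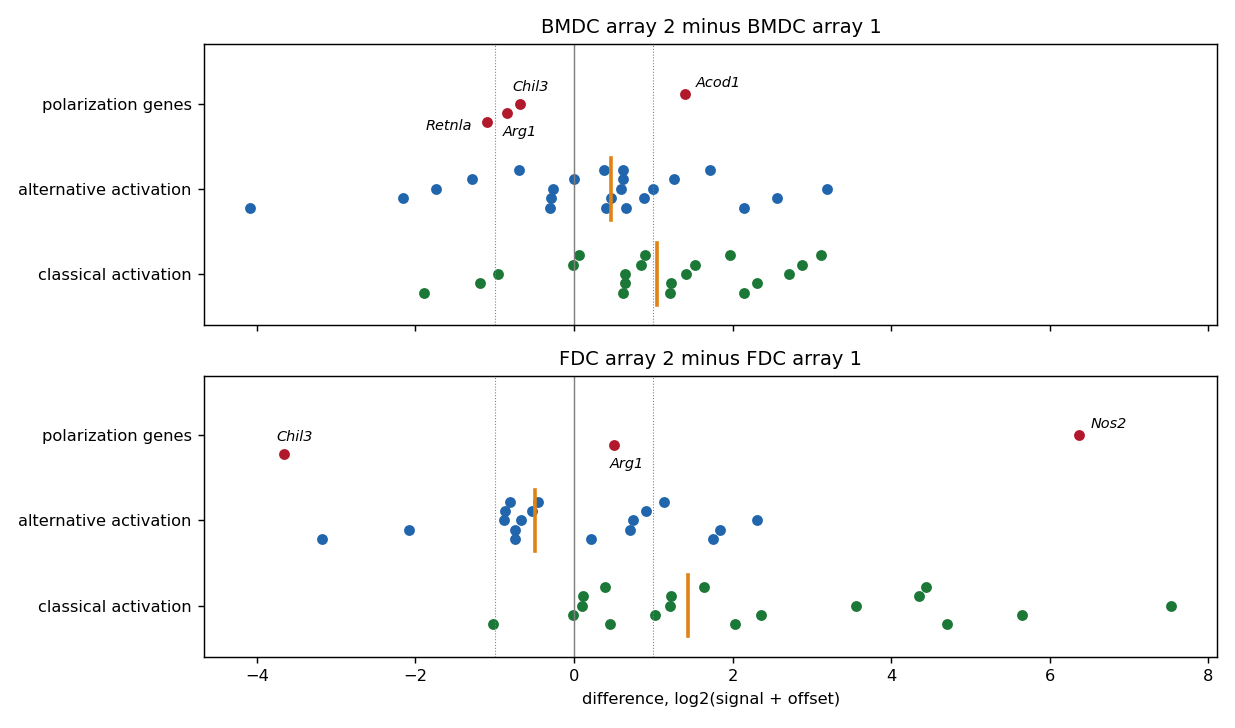
Difference between the arrays of each cell type on the log2(signal + 14.2) scale, array 2 minus array 1, for the polarization genes and the 2 activation lists. Points are genes above the 40th percentile in that cell type, orange bars are list medians and dotted lines mark a difference of 1 either way; Acod1 lies at 1.40 in BMDC while Retnla, Arg1 and Chil3 lie below 0, and Nos2 lies at 6.37 in FDC.

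The FDC arrays differed in Nos2 and in other classical activation genes. Nos2 was higher on FDC array 2 than on FDC array 1 by 6.37 on the log2 scale, and of 18 classical activation genes above the 40th percentile of FDC level 12 were at least 1 higher and 1 at least 1 lower. Over all 12677 genes at that level, 8.95% were at least 1 higher and 11.3% at least 1 lower. The median of the classical list was 1.43, against -0.06 over all genes. Of 18 alternative activation genes 4 were at least 1 higher and 2 at least 1 lower on array 2, with a median of -0.49, so that list went both ways. The genes named next were chosen after their values were seen. The chemokine Cxcl11, which draws activated T cells, read 16.9 and 11.9 in BMDC, against 35.3 and 9155 on FDC arrays 1 and 2. Cxcl10, a chemokine for the same receptor, read 50.4 and 102 in BMDC and 471 and 10507 in FDC. Ptgs2, the inducible cyclooxygenase, read 52.3 and 87.9 in BMDC and 531 and 27337 in FDC. Interferon-gamma itself (Ifng) read 46.6 and 10.5 in BMDC and 17.7 and 73.4 in FDC, a dim signal on each of these arrays. Gch1, which makes the first step of the cofactor that nitric oxide synthases need, read 2001 and 2983 on the BMDC arrays and 643 and 1879 on FDC arrays 1 and 2. Nos2 was thus bright on 1 array, the one on which Cxcl10 and Cxcl11 were also brightest. Marker lists moved between the same FDC arrays: of 9 fibroblast markers at that level 5 were at least 1 lower on array 2 and 0 higher, with a median of -1.12, of 9 FDC markers 4 were lower and 0 higher, and of 5 markers of eosinophils, basophils and mast cells 3 were higher and 0 lower. Their part in the difference of Nos2 was not tested.

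**Figure D3:**
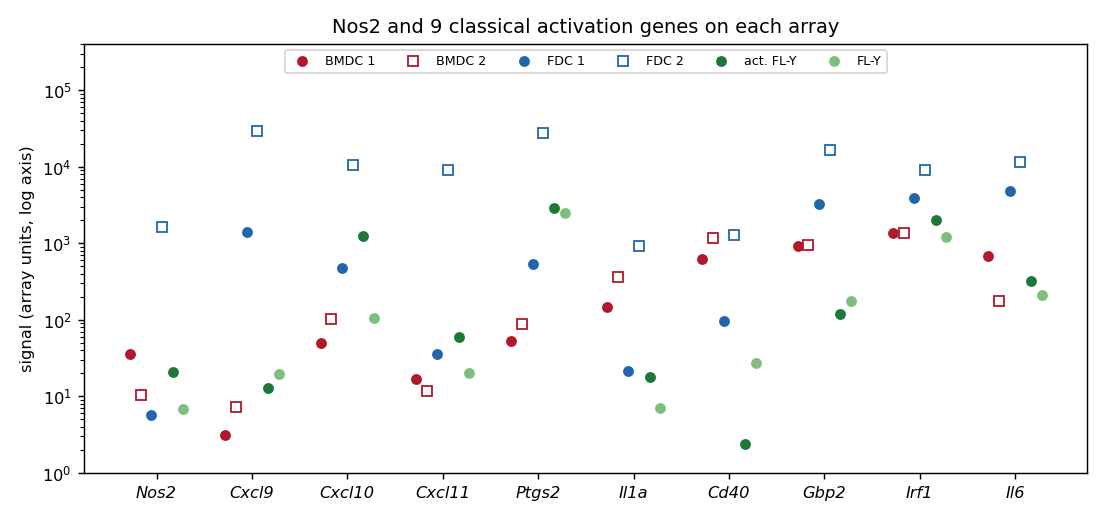
Signal of Nos2 and 9 classical activation genes, picked after their values were seen, on each of the 6 arrays (log axis, open squares for array 2 of a cell type). FDC array 2 is the brightest array for all 10 genes, with Nos2 at 1635 and Cxcl9 at 29344.

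For each gene the 3 genes nearest in pattern were found by the root mean square difference of log2 values over the 6 arrays, after centring each gene, among 12641 genes. Nearest to Arg1 was Ctss, a lysosomal protease, at a distance of 0.26 log2 units, followed by the class II chains H2-Ea (0.46) and H2-Eb1 (0.52). Nearest to Acod1 were F10 (0.52), Myo1f (0.55) and Cfp (0.56), that is, coagulation factor X, a myosin of leukocytes and properdin. Retnla had no neighbour as close: Cd36, a scavenger receptor, lay at 0.84, S100a9 at 0.87 and the lectin Clec4n at 0.88. Chil3 was nearest to Ccl6 (0.91), Fcer1g (0.99) and H2-Eb1 (1.03). Nos2 was nearest to the mast cell protease Mcpt2 (0.43), the growth factor Pgf (0.46) and the cytokine Csf2 (0.84). Mcpt2 read 78.7 and 6.8 in BMDC, and 22.7 and 1621 on FDC arrays 1 and 2, so its likeness to Nos2 rests on FDC array 2. Among the genes themselves, Retnla and Acod1 were closest (1.17) and Nos2 lay between 4.86 and 5.70 from each of the others. All of these distances share the same 6 arrays. The neighbours of Retnla, Chil3, Arg1 and Acod1 share the 2 bright BMDC arrays. Those of Nos2 share FDC array 2 instead, where Pgf read 1261 and Csf2 2099, against 13.3 and 9.1 on FDC array 1.

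The other genes of the pathways were compared between BMDC and FDC with limma on all 27022 probe sets above the 40th percentile of mean level, which correspond to 12750 genes, and p-values were adjusted over all of them. Over those genes 5.40% were higher and 5.87% lower in BMDC at an adjusted p of 0.05, and the median log2 difference was 0.03. By probe set, 8.93% were called in either direction. The lists were chosen with earlier results of these data known, so their counts are a description and no independent support. Of 23 alternative activation genes tested, 15 were higher in BMDC, 0 were lower and 8 were not called, with a median of 4.97. Some of those called, Mgl2 and Clec10a among them, lay below the 40th percentile of FDC level and passed the filter only through BMDC. The lectins Mgl2 and Clec10a, which bind galactose-type sugars, had signals of 15823 and 23853, and of 2107 and 3335, in BMDC, against 62.3 and 5.0, and 45.1 and 6.4, in FDC. The differences were 8.99 ± 0.73 (SE, adjusted p = 0.00401 with limma) for Mgl2 and 6.25 ± 0.63 (SE, adjusted p = 0.00628) for Clec10a. Ccl24, a chemokine for eosinophils, read 14758 and 4395 in BMDC and 18.6 and 103 in FDC. The lipid-sensing receptor Trem2 read 15099 and 6155 in BMDC and 116 and 197 in FDC, a difference of 5.87 ± 0.58 (SE, adjusted p = 0.00607), or 3.25 with its probe sets averaged.

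Ccl17 (7.26 ± 1.10) and the interleukin-1 antagonist Il1rn (6.15 ± 0.42) were also higher in BMDC, although Ccl17 was not called once FDC array 1 was left out (adjusted p = 0.0594 with limma). Mrc1 was higher by 4.97 ± 0.79 (SE), a call that did not hold once FDC array 2 was left out (adjusted p = 0.0633). The genes not called, of which those named here were picked after their values were seen, included Tgm2, a transglutaminase used as a marker in mouse and human, which read 13158 and 17389 in BMDC and 5554 and 3318 in FDC (1.81 ± 0.45, adjusted p = 0.0726). Cd163, a scavenger receptor of resident macrophages, read 29.9 and 33.2 in BMDC and 2.6 and 2.0 in FDC, and lay below the filter, as did Il10. The whole marker lists moved with them: of 10 tested dendritic cell markers 6 were higher in BMDC and 0 lower, and of 10 macrophage and monocyte markers 8 were higher and 0 lower. The part of cell type in the list's difference was not tested.

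Classical activation genes went both ways. Of 22 tested, 6 were higher and 2 lower in BMDC and 14 were not called, with a median of 1.28. The formyl peptide receptor Fpr2 read 4066 and 11753 in BMDC and 4.0 and 59.2 in FDC (7.57 ± 0.85, adjusted p = 0.00837 with limma). Fpr2 lay below the 40th percentile of FDC level and passed the filter only through BMDC. Il1b, the pyrogenic cytokine, read 1950 and 5196 in BMDC and 82.2 and 118 in FDC (4.82 ± 0.58, adjusted p = 0.0102). Ccl5 was higher by 5.08 ± 0.52 (SE), the transcription factor Irf5 by 5.29 ± 0.75 (2.79 with its probe sets averaged) and the costimulatory ligand Cd86 by 4.44 ± 0.77. Cd86 lost its call without BMDC array 2 or FDC array 1 (adjusted p = 0.0569 and 0.0828 with limma), and Irf5 without BMDC array 2 (0.0544). The 2 lower genes were Cxcl9 and Il6, the second named after its values were seen. Cxcl9, an interferon-gamma-induced chemokine, read 3.1 and 7.2 in BMDC and 1421 and 29344 in FDC, and its difference of -8.40 ± 1.38 (SE, adjusted p = 0.0242) lost its call without either BMDC array (0.0670 and 0.0630). Cxcl9 passed the filter only through FDC. Its BMDC signals lie under the background mark, so the size depends on the offset. It was -10.37 under a floor at the 5th percentile and -6.84 under an offset at the 40th. With its probe sets averaged the difference of Cxcl9 was -5.98. Il6 read 688 and 176 in BMDC and 4838 and 11351 in FDC and lost its call without BMDC array 2 (0.0707) or FDC array 2 (0.0816). The count of 8 called genes ranged from 3, without BMDC array 2, to 11, without FDC array 1.

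**Figure D4:**
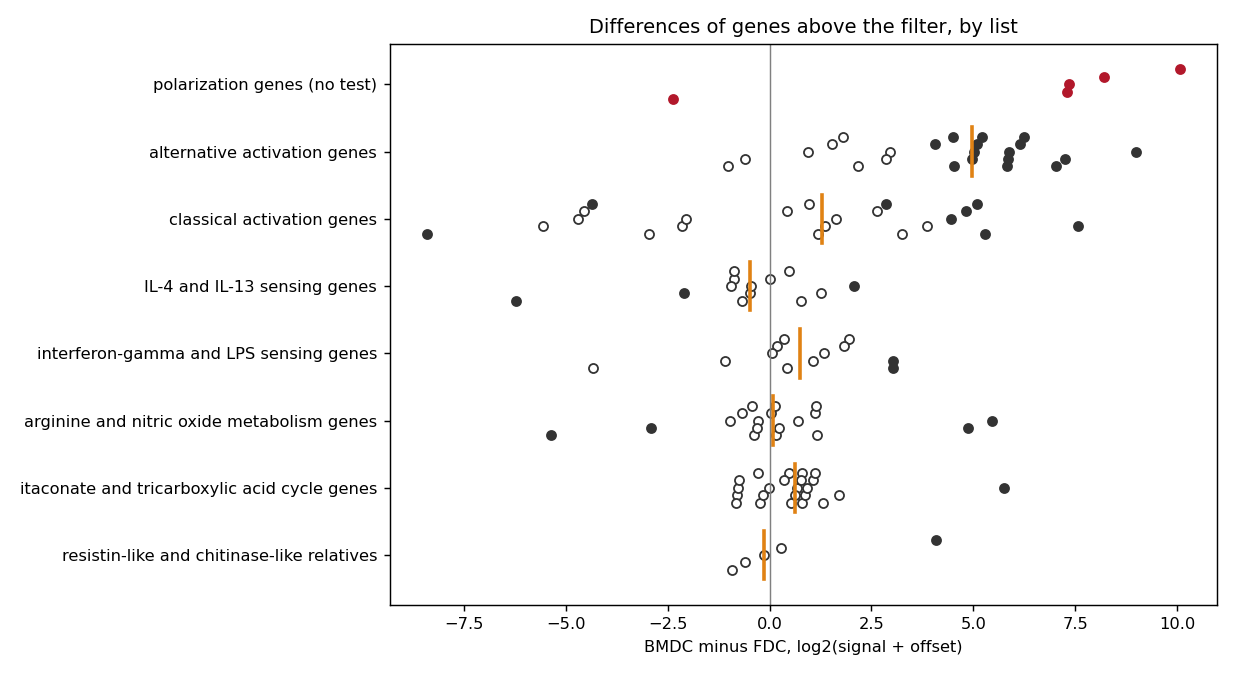
Log2 difference of BMDC minus FDC for genes above the filter, by list. Filled points in the lower 7 rows passed an adjusted p of 0.05 with limma, open points did not, orange bars are list medians, and the 5 polarization genes in the top row carry no test; the alternative activation list has its median at 4.97 and the classical list at 1.28.

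Of 13 tested genes that sense interleukin-4 and interleukin-13, 1 was higher and 2 were lower in BMDC, with a median of -0.48. Over all genes tested 5.40% were higher and 5.87% lower. Counts this small, here and for interferon-gamma and LPS below, say little about the lists. Il4ra, the receptor chain shared by interleukin-4 and interleukin-13, read 621 and 737 in BMDC and 3746 and 2305 in FDC (-2.10 ± 0.43, adjusted p = 0.0451 with limma). With its probe sets averaged Il4ra was at -1.45 and not called (adjusted p = 0.102 with limma). The decoy receptor Il13ra2 read 7.2 and 38.1 in BMDC and 7880 and 782 in FDC (-6.23 ± 1.15, adjusted p = 0.0335). It passed the filter only through FDC, and its size depends on the offset. Il13ra2 was at -7.23 with a floor at the 5th percentile and at -5.13 with an offset at the 40th. The kinase Tyk2 was higher in BMDC (2.08 ± 0.40, adjusted p = 0.0388, or 1.31 and not called with its probe sets averaged). All 3 calls were lost with a floor at the 5th percentile and with no filter. Leaving out any 1 of the BMDC or FDC arrays moved Il4ra between -2.44 and -1.75, Il13ra2 between -7.88 and -4.57 and Tyk2 between 1.85 and 2.32. These ranges describe the size of the differences and do not show that the calls held. Stat6 itself, named after its values were seen, read 4068 and 2610 in BMDC and 2925 and 1835 in FDC, which overlap. The cytokines Il4 and Il13 were dim, the brightest signals being 236 for Il4 and 191 for Il13 on FDC array 1. Of 12 tested genes that sense interferon-gamma and LPS, 2 were higher and 0 lower in BMDC: the transcription factor Irf8 (3.02 ± 0.38, adjusted p = 0.0114) and the LPS co-receptor Cd14 (3.03 ± 0.58, adjusted p = 0.0369). Leaving out BMDC array 1 ended the call of Irf8 (adjusted p = 0.0552). That of Cd14 ended without BMDC array 1, BMDC array 2 or FDC array 2 (adjusted p = 0.0696, 0.129 and 0.0791 with limma).

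Among the enzymes around Arg1 and Nos2, Arg2 was higher and Ddah1 lower in BMDC. Of 18 genes of arginine and nitric oxide metabolism, 2 were higher and 2 lower in BMDC and 14 were not called, with a median of 0.09. The shares over all genes tested were 5.40% higher and 5.87% lower. Arg2, the mitochondrial arginase, read 2170 and 1712 in BMDC and 18.6 and 46.1 in FDC (5.45 ± 0.46, adjusted p = 0.00437 with limma). Gatm, which uses arginine for creatine synthesis, read 1468 and 2605 in BMDC and 44.8 and 63.6 in FDC (4.86 ± 0.46, adjusted p = 0.00530). Ddah1 and Ddah2, which break down methylated arginines that inhibit nitric oxide synthases, were lower in BMDC. Ddah1 read 59.5 and 124 in BMDC and 4830 and 3609 in FDC (-5.37 ± 0.48, adjusted p = 0.00473). Ddah2 was lower by a difference of -2.92 ± 0.52 (SE) and was not called without BMDC array 1, BMDC array 2 or FDC array 1 (adjusted p = 0.0923, 0.105 and 0.0663 with limma). Nos1 and Nos3, named after their values were seen, had signals of 165 and 61.8, and of 102 and 133, in BMDC, against 80.5 and 102, and 74.1 and 129, in FDC, so that neither of the other nitric oxide synthases separated the cell types.

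Around Acod1, of 23 genes of itaconate and the tricarboxylic acid cycle 1 was higher in BMDC and 0 lower, with a median of 0.64. Over all genes tested 5.40% were higher and 5.87% lower, so the list held no more calls than that rate. The 1 called gene was Atf3, a stress-induced transcription factor, which read 7515 and 5015 in BMDC and 75.7 and 130 in FDC (5.76 ± 0.46, adjusted p = 0.00379 with limma). The cycle enzymes themselves were not called, the nearest being Idh2 at 1.69 ± 0.39 (SE, adjusted p = 0.0622). Of the relatives of Retnla and Chil3, 5 of 9 were tested and 1 was higher in BMDC, Chil1, another chitinase-like protein, at 203 and 391 in BMDC against 3.0 and 3.8 in FDC (4.08 ± 0.46, adjusted p = 0.00823 with limma, or 2.60 with an offset at the 40th percentile, since its FDC signals are at background). Its call could be had only with both BMDC arrays, since without either it fell below the filter. Retn, which encodes resistin, read 4.5 and 7.2 in BMDC and 82.1 and 44.1 in FDC, and Retnlb read 3.7 and 32.8 in BMDC and 39.7 and 3.0 in FDC, both below the filter. Bright resistin-like signal in BMDC was therefore seen for Retnla and for neither of these 2 relatives. Another resistin-like gene, Retnlg, was not analysed here, so its level in BMDC is not known.

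All 5 genes were dim in activated FL-Y and in FL-Y. None of them passed the 40th percentile of level over the 2 FL-Y arrays. The highest FL-Y signals were 26.1 for Chil3 in FL-Y and 20.5 for Nos2 in activated FL-Y, and the log2 differences of activated FL-Y minus FL-Y lay between -1.18 for Chil3 and 0.72 for Nos2, all at or near background. Nos2 was above its background mark in activated FL-Y (20.5 against 8.7) and under it in FL-Y (6.9 against 12.1), and its difference was 1.13 with quantile normalization and 0.30 with an offset at the 40th percentile. Among 12204 genes above that level, 1.75% were at least 1 higher and 4.89% at least 1 lower in activated FL-Y. Of 12 classical activation genes at that level 4 were at least 1 higher and 1 at least 1 lower. Cxcl10 read 1232 in activated FL-Y and 106 in FL-Y, and Ccl5 read 300 in activated FL-Y and 59.5 in FL-Y. Of 12 alternative activation genes 1 was at least 1 higher, the arginine transporter Slc7a2, at 808 in activated FL-Y and 381 in FL-Y, and 1 was at least 1 lower, the lipid-sensing nuclear receptor Pparg, at 219 in activated FL-Y and 524 in FL-Y. With 1 array each, these FL-Y differences have no replicate check. BMDC minus FL-Y differences of the genes, which share the BMDC arrays with the comparison above, were 10.63 for Retnla, 10.08 for Chil3, 10.76 for Arg1, 8.58 for Acod1 and 0.74 for Nos2. Their size is set in part by the offset, since the FL-Y signals are at or near background.

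The labels were checked against marker genes. The dendritic cell integrin Itgax read 19951 and 18428 in BMDC and 125 and 20.9 in FDC, and the macrophage marker Adgre1 read 8197 and 8172 in BMDC and 87.7 and 144 in FDC. The BMDC arrays also carried 9 of 10 neutrophil markers at a higher level than FDC. Of 10 fibroblast markers 7 were lower in BMDC, with summed signals of 2831 and 1959 in BMDC and 288691 and 187419 in FDC. The complement receptor Cr2, a defining gene of FDC, read 59.1 and 71.1 in BMDC, 120 and 4.1 in FDC, 21.6 in activated FL-Y and 41.9 in FL-Y, so it did not set the FDC arrays apart. Of 10 FDC markers tested, 0 were lower and 3 were higher in BMDC, namely Mfge8, Fcgr2b and Clu, with summed signals of 66917 and 60008 in BMDC and 19512 and 16404 in FDC. The call of Mfge8 was lost with a floor at the 5th percentile and with no filter (adjusted p = 0.0530 and 0.0746 with limma). T and B cell markers were dim in BMDC, with summed signals of 693 and 327 against 2333 and 1400 in FDC.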

How the data were processed

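The authors deposited linear intensity values for 45101 probe sets on each array, which had a mean of 500 after trimming 2% at each end, so each array had been scaled by the authors before deposit. Labelling used a one-cycle kit, per the labels' protocols. Which program summarised the probes, and how background was handled, is not given in the sources used here. Probe sets took gene symbols from the platform annotation: 34945 named 1 gene, 932 named several, and the annotation did not hold 9160. The gene identifiers of 34741 matched RefSeq GRCm38.p6, and 0 symbols changed. Control probe sets (64) were left out. Where a gene had several probe sets, the one brightest on average across the 6 arrays stood for it.

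Values were log2(intensity + 14.2). The BMDC and FDC comparison used limma 3.58.1 under R 4.3.3 (eBayes on lmFit, two-sided, 2 residual and 3.35 prior degrees of freedom) on probe sets whose mean over the 4 arrays was above the 40th percentile (a signal of 46.4), with Benjamini-Hochberg adjustment. The script was tested on simulated data. An SE is that of the limma fit. Named genes were up to 6 called genes of each list with the largest differences (2 where none was called), the 2 furthest genes each way between the BMDC arrays and between the FL-Y arrays, and those described as named after their values were seen. Of the list genes, 1 alternative, 2 classical, 1 interleukin-4, 3 interferon-gamma, 2 arginine, 1 itaconate and 1 relative were not analysed here. Chil4 stands in 2 lists. Upstream windows were aligned with Biopython 1.88. Alternatives were another offset, a floor, 2 scalings, 2 filters, a replicate block, averaging probe sets and leaving out each array. The genes and lists were chosen with earlier results of these data known. The number of arrays limits the precision.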

Additional observations from a re-analysis of the deposited data

How the results depend on the processing

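Leaving out 1 array at a time moved the BMDC minus FDC difference of Retnla between 9.52 and 10.62, of Chil3 between 5.52 and 9.18, of Arg1 between 6.88 and 7.73, of Acod1 between 7.51 and 8.92 and of Nos2 between -5.55 and 0.82, where the sign turned without FDC array 2. With no offset and a floor at the 5th percentile Retnla was at 11.33 and Acod1 at 9.69, and with an offset at the 40th percentile at 8.73 and 6.92, which follows from their FDC signals at background. The activated FL-Y minus FL-Y difference of Retnla turned from -0.02 to 0.10 with quantile normalization, at background on both arrays. Calls over all genes numbered 1436, against 884 with the floor, 829 with no filter and 769 to 1238 without 1 array. Classical activation genes called numbered 8, against 5 with the floor, 5 with no filter and 3 to 11 without 1 array. Interleukin-4 sensing genes called numbered 3, against 0 with the floor, 0 with no filter, 1 with the replicate block, 1 with probe sets averaged and 0 to 1 without 1 array. Interferon-gamma sensing genes called numbered 2, against 1 with the floor, 1 with no filter, 1 with the replicate block and 0 to 2 without 1 array. Itaconate list calls numbered 1, against 2 with the offset at the 40th percentile and 2 with the filter at the 60th. Relatives called numbered 1, against 0 with the floor, 0 with the filter at the 60th percentile, 0 with probe sets averaged and 0 to 1 without 1 array. Alternative activation calls, 15, lay between 14 and 18 under all alternatives, and arginine list calls, 4, between 3 and 4. None of the 75 called list and marker genes changed sign in any alternative that tested it. Where no reason is given the cause was not tested. The array numbers are not stated to pair the samples: the differences of array 2 minus array 1 correlated at 0.16 between the cell types across 12750 genes, which are not independent, and the replicate block gave 1415 calls over all genes. With 2 arrays a group, small differences could not be detected.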
